A study of Mus musculus with 48 samples.

Results

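Type 1 immunity genes were followed through sorted tumor-infiltrating and lymph node cells of mice whose T cells lack Yap. The 10 genes were chosen by name, for their role and not for any measured value, though with earlier results of these data known. All were found among the 34932 genes measured: Tbx21, Eomes and Runx3, which encode transcription factors, Ifng and Tnf, which encode cytokines, Il12rb1, Il12rb2, Il18r1 and Il18rap, which encode the chains of the IL-12 and IL-18 receptors, and Stat4. In type 1 responses, IL-12 binds a receptor of the IL-12Rβ1 and IL-12Rβ2 chains and activates STAT4, which acts with T-bet, the product of Tbx21, at the interferon-γ gene. IL-18 binds the Il18r1 product and recruits the accessory chain encoded by Il18rap, and the combination of IL-12 and IL-18 drives interferon-γ in Th1 cells, CD8+ effector T cells and natural killer (NK) cells. Eomesodermin, from Eomes, is the T-box relative of T-bet in CD8+ T cells and NK cells, and RUNX3 directs the CD8+ lineage and its cytotoxic genes.

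RNA was sequenced from sorted CD4+ and CD8+ T cells and from CD45+CD4-CD8- cells of C57BL/6J mice bearing subcutaneous B16F10 melanomas, a tumor line derived from this strain. Cells came from the tumor, where they are called tumor-infiltrating lymphocytes (TILs) for the T cells, and from the tumor-draining inguinal lymph node (TDLN). Yap-cKO mice carried loxP-flanked Yap alleles, a Cre-dependent EYFP reporter and Cre driven by the Cd4 promoter, so deletion was directed to T cells and not to the CD45+CD4-CD8- cells or the tumor. WT littermates served as controls, and which of these alleles they carried is not given in the sources used here. The mice were 6 to 10 weeks old. Each of the 12 groups held 4 libraries, 48 in all, and nothing in the labels says whether a library is 1 mouse or a pool, so the p-values measure the spread between these libraries, which may be technical.

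The sequence that lies before the start of 3 of the genes is shown for reference, because Ifng differed between the tissues in every comparison of T cells, Il12rb2 differed most between genotypes in CD8+ TILs, and the use of the Runx3 starts was compared between CD4+ and CD8+ T cells. Each line gives the 250 bases before the RefSeq transcription start on GRCm38.p6, 5′ to 3′ on the gene's own strand, with capitals for matches to 5 short motifs searched on both strands.
Ifng, chr10:118440796-118441045, plus strand: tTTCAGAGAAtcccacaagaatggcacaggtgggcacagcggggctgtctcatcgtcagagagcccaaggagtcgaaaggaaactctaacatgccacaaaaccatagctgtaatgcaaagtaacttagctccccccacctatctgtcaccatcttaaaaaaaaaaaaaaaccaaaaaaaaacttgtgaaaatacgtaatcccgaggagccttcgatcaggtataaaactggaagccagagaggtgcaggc
Il12rb2, chr6:67376189-67376438, minus strand: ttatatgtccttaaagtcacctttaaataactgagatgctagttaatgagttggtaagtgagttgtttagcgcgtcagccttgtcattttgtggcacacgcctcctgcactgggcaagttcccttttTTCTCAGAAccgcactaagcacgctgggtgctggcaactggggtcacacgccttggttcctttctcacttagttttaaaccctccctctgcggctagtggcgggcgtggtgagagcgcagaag
Runx3 distal start, chr4:135120395-135120644, plus strand: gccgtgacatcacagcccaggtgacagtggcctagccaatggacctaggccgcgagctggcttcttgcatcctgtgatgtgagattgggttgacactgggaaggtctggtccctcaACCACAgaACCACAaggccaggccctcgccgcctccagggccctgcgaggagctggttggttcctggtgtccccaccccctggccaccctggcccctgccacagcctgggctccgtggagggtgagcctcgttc
The capitals mark TTCAGAGAA in Ifng, beginning 249 bases before the start, and TTCTCAGAA in Il12rb2, beginning 123 bases before it, which both match the STAT motif TTCNNNGAA. In Runx3 they mark ACCACA at 134 and at 126 bases before the start, the reverse complement of the RUNX motif TGTGGT. RefSeq promoters were matched for 9 of the 10 genes, with 13 starts in all. A STAT motif was found at 3 of the 13, against 7.02% of 32851 promoters of the same length, and a RUNX motif at 1, against 14.0%. The T-box motif GGTGTG was found at 1 of the 13, against 16.3% of all promoters, and the AP-1 motif TGANTCA (6.75% of all promoters) and the TEAD motif GGAATG (12.6%), bound by the partners of Yap, at 0. A match describes letters in a window and does not show that a factor binds there.

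Libraries held 12656510 to 24213892 counts on genes, and levels are given in CPM, a gene's count scaled to library size after all 48 libraries were normalized by TMM in edgeR. At this depth 3 counts in a library equal 0.124 to 0.237 CPM. The sorted populations carried their defining genes: Cd4 ranged from 104 to 1062 CPM in CD4+ libraries and from 0.288 to 5.72 in CD8+ libraries, and Cd8a from 218 to 1288 in CD8+ libraries and from 0.344 to 7.42 in CD4+ libraries. Yap1 was at 13 to 27.1 CPM in WT and 2.37 to 6.37 in Yap-cKO CD8+ TILs, and at 1.13 to 4.53 in all TDLN libraries of T cells, where genotypes overlapped. In CD45+CD4-CD8- tumor cells, to which Cre was not directed, Yap1 was also lower without overlap, at 2.74 to 5.32 CPM in WT and 1.52 to 2.03 in Yap-cKO, and melanoma transcripts moved with it in all tumor populations, so that deletion in T cells and fewer melanoma transcripts cannot be told apart in its level. Some libraries stood apart: WT CD4+ and CD8+ TIL libraries carried melanoma transcripts, the T-cell content of replicates 1 and 2 of WT CD8+ TILs was low, and replicate 3 of Yap-cKO CD4+ TILs had 91.6 CPM of Ptprc, the CD45 gene, against 945 to 1264 in the others. Y-linked Ddx3y and Eif2s3y both exceeded 5 CPM in 18 libraries, which were WT replicates 1 to 3 of every population, and in 0 of the other 30, so this difference cannot be told apart from genotype except through WT replicate 4.

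**Figure D1:**
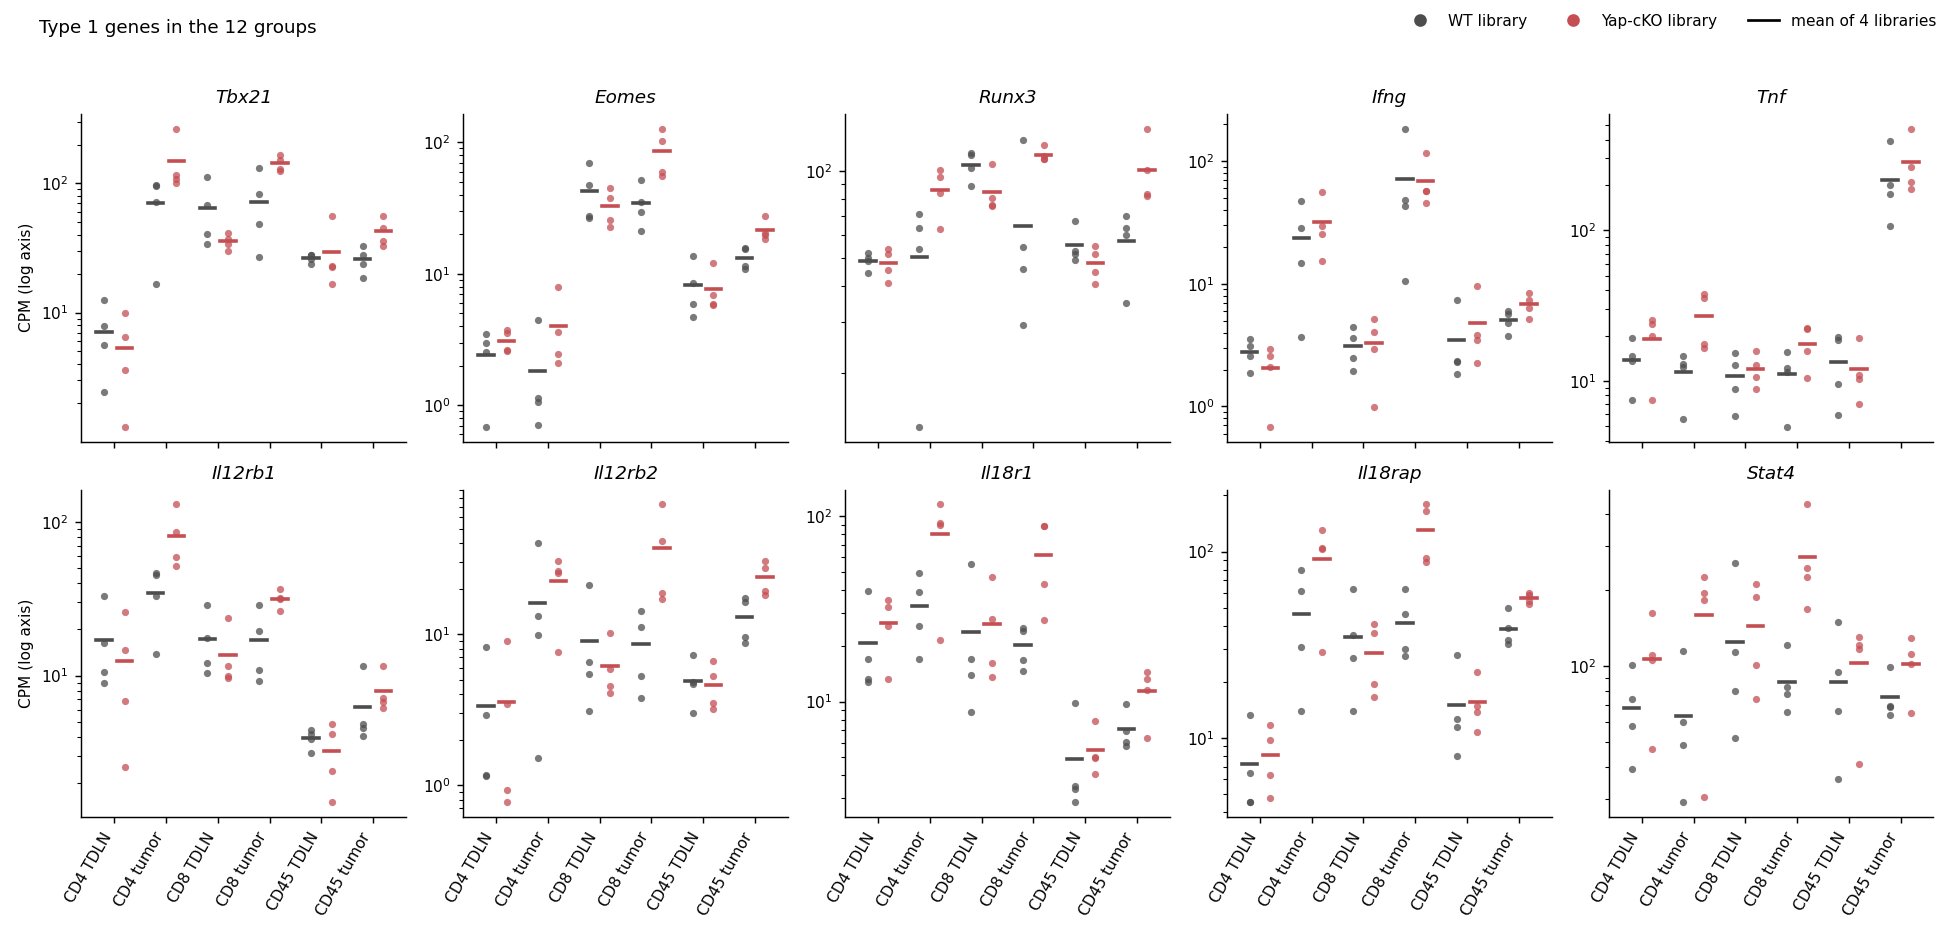
CPM of each of the 10 genes (vertical log axes) in the 6 populations (horizontal axis), with a point for each library, gray for WT and red for Yap-cKO, and a bar at the mean of 4 libraries. Ifng lies above 10 CPM only in tumor T cells, Eomes above 20 CPM mainly in CD8+ T cells, and Tnf above 100 CPM only in CD45+CD4-CD8- tumor cells.

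Across the 12 groups each transcription factor had its own distribution. Tbx21 (ENSMUSG00000001444.2, chr11:97098071-97115331, minus strand, GRCm38) had group means from 5.32 ± 3.72 CPM (SD, n = 4) in Yap-cKO CD4+ T cells of the TDLN to 148 ± 78.6 in Yap-cKO CD4+ TILs. The 4 TIL groups held the highest means of Tbx21 and the CD4+ TDLN groups the lowest, and of the 11 neighbouring pairs in this order only WT CD45+CD4-CD8- tumor cells, at 25.8 CPM, and WT CD4+ TDLN cells, at 7.11, did not overlap. Eomes (ENSMUSG00000032446.14, chr9:118478212-118486132, plus strand) ran from 1.83 ± 1.75 CPM in WT CD4+ TILs to 86.3 ± 34.4 in Yap-cKO CD8+ TILs. The 4 CD8+ groups were the 4 highest for Eomes, the 4 CD4+ groups the 4 lowest, and the CD45+CD4-CD8- groups lay between them, where Yap-cKO and WT tumor cells, at 21.5 and 13.3 CPM, were the only neighbours apart. Runx3 (ENSMUSG00000070691.10, chr4:135120652-135177990, plus strand) varied least, from 47.8 ± 5.83 CPM in Yap-cKO CD4+ TDLN cells to 114 ± 6.18 in Yap-cKO CD8+ TILs, and 0 of its 11 neighbouring pairs were apart.

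The cytokine genes marked different tumor populations. Ifng (ENSMUSG00000055170.4, chr10:118441046-118445892, plus strand), the gene of interferon-γ, had its 4 highest means in the 4 TIL groups, from 23.5 ± 18.6 CPM in WT CD4+ TILs to 71.3 ± 76.7 in WT CD8+ TILs. All TDLN groups had means of Ifng from 2.07 to 4.77 CPM, and the CD45+CD4-CD8- tumor groups 5.09 ± 1.02 in WT and 6.87 ± 1.41 in Yap-cKO. Neighbouring groups in the order overlapped for all 11 pairs. Tnf (ENSMUSG00000024401.14, chr17:35199381-35202007, minus strand), the gene of tumor necrosis factor, which macrophages as well as T cells make, was at 217 ± 121 CPM in WT and 283 ± 129 in Yap-cKO CD45+CD4-CD8- tumor cells. These groups did not overlap with the next, Yap-cKO CD4+ TILs at 26.8 ± 11.2 CPM, and the remaining groups reached down to 10.7 ± 4.20 in WT CD8+ TDLN cells.

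Il12rb1 (ENSMUSG00000000791.9, chr8:70808449-70821424, plus strand), which encodes the chain that the IL-12 and IL-23 receptors share, was highest at 81.6 ± 35.2 CPM in Yap-cKO CD4+ TILs, apart from the next group, WT CD4+ TILs at 34.6 ± 15.1. Its 4 lowest means, 3.24 to 7.89 CPM, were those of CD45+CD4-CD8- cells. Il12rb2 (ENSMUSG00000018341.12, chr6:67291318-67376188, minus strand), the signalling chain that makes a cell responsive to IL-12, was highest at 37.4 ± 25.8 CPM in Yap-cKO CD8+ TILs and lowest at 3.35 ± 3.34 in WT CD4+ TDLN cells, with all neighbours overlapping. Il18r1 (ENSMUSG00000026070.15, chr1:40465552-40500854, plus strand), the IL-18-binding chain, ran from 4.89 ± 3.32 CPM in WT CD45+CD4-CD8- TDLN cells to 79.9 ± 40.6 in Yap-cKO CD4+ TILs, and its 8 T-cell groups all had higher means than its 4 CD45+CD4-CD8- groups, with the lowest of the former, WT CD8+ TILs at 20.2 CPM, apart from the highest of the latter, Yap-cKO tumor cells at 11.4. Il18rap (ENSMUSG00000026068.11, chr1:40515362-40551705, plus strand), the signalling partner of that chain, ran from 7.21 ± 4.15 CPM in WT CD4+ TDLN cells to 131 ± 47.9 in Yap-cKO CD8+ TILs, and its 6 highest means were those of the 6 tumor groups. Stat4 (ENSMUSG00000062939.11, chr1:51987148-52107189, plus strand), which encodes the transcription factor that IL-12 activates, was measured at 63.3 ± 36.9 CPM in WT CD4+ TILs, its lowest mean, and at 269 ± 116 in Yap-cKO CD8+ TILs, its highest.

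Levels of different genes can be compared per transcript length, in the deposited TPM. In Yap-cKO CD8+ TILs, mean TPM was 165 for Stat4, 102 for Ifng, 90.1 for Tbx21, 50.4 for Runx3, 46.5 for Il18rap, 42.6 for Eomes, 35.4 for Il18r1, 20.2 for Il12rb2, 18.3 for Il12rb1 and 17.4 for Tnf. In WT CD8+ TILs Ifng was at 89.3 ± 90.0 TPM, Stat4 at 53.4 ± 16.9, Tbx21 at 43.6 ± 27.1 and Eomes at 16.5. The mean of Ifng there rested on replicate 4, at 221 TPM, and was 45.4 without it, below the 57.3 of Stat4.

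The comparison of Yap-cKO with WT asks how deletion of Yap in T cells alters these genes. It was made within each population, over 8 libraries, by the quasi-likelihood test of edgeR, with p adjusted by Benjamini-Hochberg over all genes tested. To be called, a gene needed an adjusted p below 0.05 together with a log2 fold change beyond 1 in size. In CD8+ TILs, 5 of the 10 genes were called, all higher in Yap-cKO, where 3.03% of 14121 genes were called higher and 12.2% in either direction. All 10 fold changes were positive or nil and their median was 1.18 on the log2 scale, beside 0.08 over all genes. The 5 were Eomes, Il12rb2, Il18r1, Il18rap and Stat4, that is, both chains of the IL-18 receptor, the IL-12-specific chain, the factor below it and a T-box factor.

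Stat4 was at 65.9, 77.6, 121 and 83.0 CPM in WT replicates 1 to 4 of CD8+ TILs and at 436, 245, 169 and 226 in Yap-cKO. The lowest Yap-cKO library exceeded the highest WT library, and the log2 fold change was 1.66 ± 0.319 (SE, edgeR adjusted p = 0.0185). Il18rap was at 30.0, 27.5, 46.2 and 62.9 CPM in WT and at 179, 92.0, 88.0 and 165 in Yap-cKO, a log2 fold change of 1.70 ± 0.352 (edgeR adjusted p = 0.0203). Both genotypes fell into ranges that did not overlap, and Yap-cKO replicates 1 and 4 were higher than 2 and 3. Il18r1 gave 16.7, 14.7, 25.1 and 24.1 CPM in WT and 89.1, 43.0, 27.4 and 89.2 in Yap-cKO, with a log2 fold change of 1.67 ± 0.399 (edgeR adjusted p = 0.0274). Its lowest Yap-cKO library, replicate 3, was close to the highest WT library, and replicates 1 and 4 were again the highest, so both chains of the IL-18 receptor ordered the Yap-cKO libraries in a like way.

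Il12rb2 was at 3.76, 5.28, 11.2 and 14.3 CPM in WT CD8+ TILs and at 72.4, 17.0, 18.7 and 41.4 in Yap-cKO. This was the widest genotype difference among the 10 genes, 2.14 ± 0.560 on the log2 scale (edgeR adjusted p = 0.0350), and its ranges did not overlap although the Yap-cKO libraries were widely spread. Eomes was at 21.1, 29.8, 52.2 and 35.2 CPM in WT and at 56.0, 127, 103 and 59.7 in Yap-cKO, a log2 fold change of 1.35 ± 0.346 (edgeR adjusted p = 0.0333). The Eomes ranges nearly met, at WT replicate 3 and Yap-cKO replicate 1, without overlap. For all 5 called genes the libraries of the genotypes did not overlap, which held for 20.6% of all genes. With Y-linked expression as a covariate 0 of the 5 were called, and 1 of 14121 genes was, with log2 fold changes from 1.34 (Il18rap) to 1.80 (Stat4) and edgeR adjusted p from 0.125 to 0.233.

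The other 5 genes were not called in CD8+ TILs. Ifng was at 48.0, 10.6, 43.1 and 184 CPM in WT and at 57.6, 117, 45.8 and 57.5 in Yap-cKO, with a log2 fold change of 0.00 ± 0.677 (edgeR adjusted p = 0.997). The WT libraries of Ifng spanned the whole Yap-cKO range, with replicate 4 above it and replicate 2 below it, so a difference of the size seen for Stat4 would not have been resolved. Tbx21 was at 27.0, 48.3, 131 and 83.1 CPM in WT and at 151, 130, 166 and 124 in Yap-cKO (log2 fold change 1.01 ± 0.407, edgeR adjusted p = 0.113), and only WT replicate 3 reached into the Yap-cKO range. Runx3 followed the same order, with 29.2, 45.6, 128 and 54.5 CPM in WT and 110 to 123 in Yap-cKO (0.86 ± 0.392, adjusted p = 0.151). Il12rb1 (0.91 ± 0.353, adjusted p = 0.102) and Tnf (0.71 ± 0.396, adjusted p = 0.230) overlapped between genotypes.

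**Figure D2:**
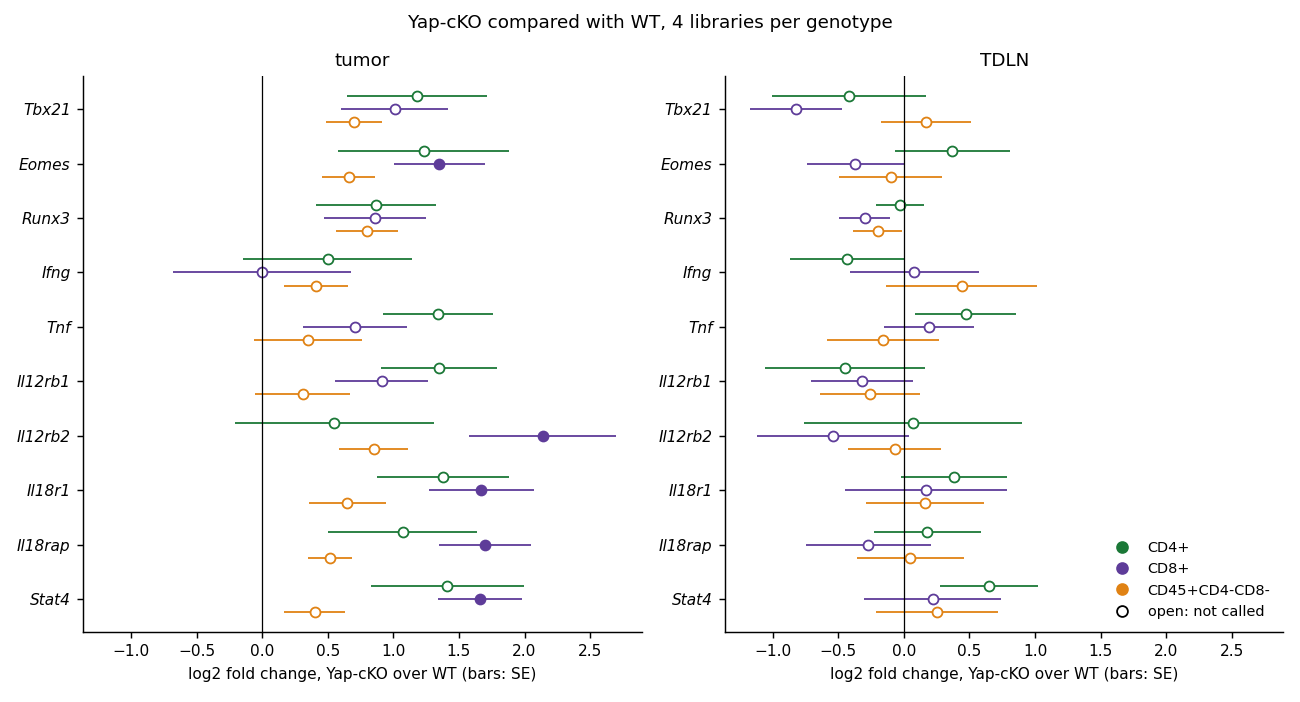
Log2 fold change of Yap-cKO over WT with its SE (horizontal axis) for each gene in tumor (left) and TDLN (right) cells, 4 libraries per genotype, filled where called and open where not. In the tumor, under TMM, 5 genes are called, all in CD8+ cells, Il12rb2 farthest at 2.14, while in the TDLN the points lie on both sides of 0 and 0 are called.

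These calls depended on single libraries. Of the 10 genes, 0 were called in CD8+ TILs without WT replicate 1, WT replicate 2 or Yap-cKO replicate 2, 2 without WT replicate 4 or Yap-cKO replicate 4 (Il18rap and Stat4), 3 without Yap-cKO replicate 1 (Eomes, Il18rap and Stat4), and 8 without WT replicate 3. The share of all genes called in these fits is not given here, so the counts do not set the 10 genes apart. The fold changes moved less: over the 8 omissions the log2 fold change of Stat4 stayed between 1.35 and 1.91, with adjusted p from 0.0106 to 0.0545 by edgeR, and that of Il18rap between 1.53 and 1.95, with adjusted p from 0.0130 to 0.0562.

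The T-cell content of the CD8+ TIL libraries differed between the genotypes. The summed level of 15 T-lineage genes was 1775, 2169, 5487 and 4435 CPM in WT and 5871 to 7029 in Yap-cKO, without overlap, whereas the summed level of 7 melanoma genes was 3660 to 13167 CPM in WT and 38.6 to 2368 in Yap-cKO, with all 7 detected in both groups. In sorted bulk libraries, fewer cells of a type and less RNA per cell cannot be told apart. Scaled on the 15 T-lineage genes in place of TMM, 0 of the 10 genes were called in CD8+ TILs, where 40.5% of all genes were, 6 of the 10 fold changes were positive, and their median was 0.25 on the log2 scale while that of all genes was -1.12. On this scale Il12rb2 kept the widest difference, 1.22 ± 0.519 (edgeR adjusted p = 0.0702). Per 1000 T-lineage counts, Il12rb2 was at 2.13, 2.44, 2.05 and 3.23 in WT and at 10.3, 2.77, 2.88 and 7.05 in Yap-cKO, so that Yap-cKO replicates 1 and 4 were high and replicates 2 and 3 lay within the WT range. Stat4 gave 37.1, 35.8, 22.1 and 18.7 per 1000 in WT and 62.1, 39.7, 26.1 and 38.4 in Yap-cKO (log2 fold change 0.55 ± 0.404, edgeR adjusted p = 0.278), with overlap. Eomes (0.34), Il18r1 (0.58) and Il18rap (0.66) kept a positive sign, Tbx21 was at 0.16, and Ifng was at -0.88 ± 0.599 (edgeR adjusted p = 0.241) on the log2 scale.

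**Figure D3:**
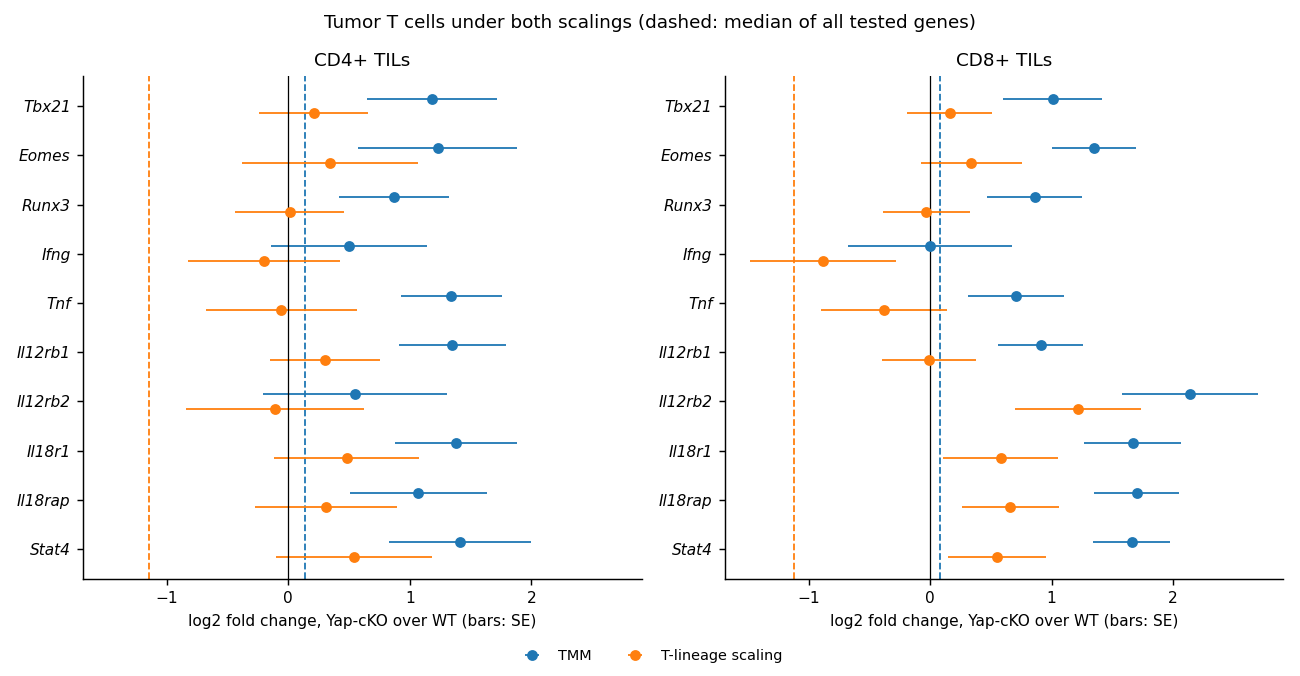
Log2 fold change of Yap-cKO over WT with its SE (horizontal axis) for each gene in CD4+ (left) and CD8+ (right) TILs, 4 libraries per genotype, under TMM (blue) and under scaling on 15 T-lineage genes (orange), with dashed lines at the median of all genes tested. Under T-lineage scaling the 10 genes lie to the right of the median of all genes, -1.15 in CD4+ and -1.12 in CD8+ TILs, and most lie near 0.

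NK cell and group 1 innate lymphoid genes, which share Eomes, Tbx21 and the IL-18 receptor with T cells, were also measured. The summed level of 6 such markers was 8.85, 15.4, 57.4 and 24.5 CPM in WT CD8+ TILs and 44.7 to 67.3 in Yap-cKO, with only WT replicate 3 in the Yap-cKO range, and their part in the differences was not tested.

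In CD4+ TILs 0 of the 10 genes were called by edgeR, where 8.02% of 14205 genes were. All 10 fold changes were positive, with a median of 1.21 on the log2 scale beside 0.14 over all genes, 4 of the 10 had an unadjusted p under 0.05 (24.5% of all genes had), and DESeq2 called 3 (Tnf, Il12rb1 and Il18r1), where it called 15% of all genes. With Y-linked expression as a covariate, 0 of the 10 had an unadjusted p under 0.05 (7.55% of all genes had), and 2 of 14205 genes were called. The libraries of the genotypes did not overlap for 3 of the 10, beside 17.1% of all genes. Tnf was at 13, 5.60, 12.3 and 14.7 CPM in WT and at 37.7, 16.6, 35.4 and 17.7 in Yap-cKO, without overlap (log2 fold change 1.34 ± 0.416, edgeR adjusted p = 0.0755). Il12rb1 was at 13.9, 33.2, 45.0 and 46.5 CPM in WT and at 85.9, 59.3, 130 and 51.5 in Yap-cKO, also without overlap (1.35 ± 0.442, adjusted p = 0.0904). Tbx21 did not overlap either, at 16.8, 71.6, 96.1 and 98.0 CPM in WT and 116, 109, 265 and 100 in Yap-cKO (1.18 ± 0.536, adjusted p = 0.205), since WT replicate 4 and Yap-cKO replicate 4 lay side by side.

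Ifng was at 3.66, 14.9, 28.4 and 47.0 CPM in WT CD4+ TILs and at 56.2, 29.8, 15.4 and 25.3 in Yap-cKO, which overlapped widely (log2 fold change 0.50 ± 0.645, edgeR adjusted p = 0.651). For Stat4, Il18r1 and Il18rap, Yap-cKO replicate 3, the library low in Ptprc, lay far below the others: Stat4 was at 226, 195, 30.5 and 183 CPM against 29.0 to 115 in WT, and Il18r1 at 116, 89.6, 21.6 and 92.1 against 16.9 to 49.3. Without this library Il18r1 and Stat4 were called by edgeR in CD4+ TILs. The share of all genes called in that fit is not given here, so these calls do not set Il18r1 and Stat4 apart. T-lineage sums were 1635, 4529, 6456 and 4671 CPM in WT and 6587 to 10886 in Yap-cKO, and melanoma sums 5303 to 16641 and 160 to 2200. Scaled on the T-lineage genes, the 10 fold changes lay between -0.20 (Ifng) and 0.54 (Stat4) and 0 were called, where 25.1% of all genes were, beside a median of -1.15 over all genes.

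CD45+CD4-CD8- cells of the tumor, to which Cre was not directed, gave 0 called genes of the 10 where 0.991% of 13628 genes were called. All 10 fold changes were positive here too, with a median of 0.59 beside 0.01 over all genes, and 5 had an unadjusted p under 0.05 (17.8% of all genes had), and DESeq2 also called 0. With the Y-linked covariate, 1 of the 10 had an unadjusted p under 0.05 (6.71% of all genes had), and 1 of 13628 genes was called. The libraries of the genotypes did not overlap for 4 of the 10, beside 11.5% of all genes. Runx3 was at 35.0, 59.9, 63.3 and 70 CPM in WT and at 140, 101, 81.6 and 83.5 in Yap-cKO, without overlap (log2 fold change 0.80 ± 0.235, edgeR adjusted p = 0.125). Il12rb2 was at 8.78, 16.4, 9.57 and 17.3 CPM in WT and at 30.6, 19.3, 27.6 and 18.3 in Yap-cKO (0.85 ± 0.263, adjusted p = 0.141), and Il18rap at 31.8 to 49.6 and 52.1 to 60.3 (0.52 ± 0.168, adjusted p = 0.154). Eomes, at 10.8 to 15.6 CPM in WT and 18.5 to 27.5 in Yap-cKO, was the fourth of these (0.66 ± 0.201, adjusted p = 0.137). In these cells the NK and group 1 innate lymphoid markers summed to 142 to 194 CPM in WT and 155 to 216 in Yap-cKO, with overlap, and B-cell markers to 772 to 1605 and 195 to 750, without overlap. Melanoma sums in these cells were 1029 to 1708 and 122 to 481, and the part of these markers in the differences was not tested.

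In the TDLN 0 of the 10 genes were called in any population, by edgeR or by DESeq2, where edgeR called 0.0462% of genes in CD4+, 0.0158% in CD8+ and 0.0596% in CD45+CD4-CD8- cells. The 10 fold changes had both signs, with 6, 4 and 5 positive in CD4+, CD8+ and CD45+CD4-CD8- cells, and medians of 0.13, -0.29 and -0.01 on the log2 scale. The only unadjusted p under 0.05 among these 30 tests was that of Tbx21 in CD8+ cells, at 34.2, 113, 68.0 and 40.8 CPM in WT and 37.2, 41.3, 33.9 and 29.9 in Yap-cKO (log2 fold change -0.82 ± 0.350, edgeR adjusted p = 0.999), where the libraries overlapped.

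The comparison of tumor with TDLN asks which of these genes differ between cells that entered the tumor and those in its draining node. It was fitted over the 16 libraries of a cell type. Ifng was called in all 4 comparisons of T cells. In CD8+ cells of WT mice it was at 2.47, 4.46, 1.95 and 3.59 CPM in the TDLN and at 48.0, 10.6, 43.1 and 184 in the tumor, and in those of Yap-cKO mice at 4.04, 5.12, 2.92 and 0.997 and at 57.6, 117, 45.8 and 57.5. Every tumor library exceeded every TDLN library, by log2 fold changes of 4.55 ± 0.706 in WT (edgeR adjusted p = 8.54e-05) and 4.46 ± 0.702 in Yap-cKO (0.000299). In CD4+ cells the difference in Ifng was 3.11 ± 0.628 in WT (edgeR adjusted p = 0.000847) and 4.03 ± 0.655 in Yap-cKO (0.000270), again without overlap.

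Of the 10 genes, 3 were called in WT CD4+ cells, all higher in the tumor, where 34.6% of genes were called in either direction and 21.8% higher. Beside Ifng these were Tbx21, at 2.41, 12.5, 5.64 and 7.83 CPM in the TDLN and 16.8, 71.6, 96.1 and 98.0 in the tumor (log2 fold change 3.34 ± 0.651, edgeR adjusted p = 0.000648), and Il18rap, at 4.52 to 13.3 and 14.0 to 79.5 (2.71 ± 0.559, adjusted p = 0.00101). Neither overlapped, although WT replicate 1 of the tumor was close to the highest TDLN library for both. In Yap-cKO CD4+ cells 6 were called, where 25.1% of genes were (18.7% higher): Tbx21 at 1.31 to 9.90 CPM in the TDLN and 100 to 265 in the tumor (4.93 ± 0.702, adjusted p = 8.51e-05), Ifng, Il18rap (3.60 ± 0.579, adjusted p = 0.000250), Il12rb1 (2.83 ± 0.614, adjusted p = 0.00246), Il12rb2 (2.78 ± 0.925, adjusted p = 0.0314) and Il18r1 (1.69 ± 0.499, adjusted p = 0.0176). Il12rb2 and Il18r1 overlapped between the tissues, Il12rb2 at 0.768 to 9.00 and 7.62 to 30.7 CPM and Il18r1 at 13.3 to 35.3 and 21.6 to 116. Eomes, Runx3, Tnf and Stat4 were not called in CD4+ cells of either genotype.

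In WT CD8+ cells only Ifng was called of the 10, where 37.6% of genes were (22.6% higher). Of the other 9, Tbx21 was at 34.2 to 113 CPM in the TDLN and 27.0 to 131 in the tumor (log2 fold change 0.21 ± 0.399, edgeR adjusted p = 0.705), and Eomes at 26.6 to 69.4 and 21.1 to 52.2 (-0.26 ± 0.358, adjusted p = 0.586). In Yap-cKO CD8+ cells 6 were called, all higher in the tumor, where 17.7% of genes were (12.6% higher). Tbx21 was at 37.2, 41.3, 33.9 and 29.9 CPM in the TDLN and at 151, 130, 166 and 124 in the tumor (2.05 ± 0.415, adjusted p = 0.00224), and Eomes at 22.8 to 44.9 and 56.0 to 127 (1.44 ± 0.365, adjusted p = 0.00960). Both T-box genes were thus apart between the tissues in Yap-cKO mice. The receptor chains Il12rb2 (2.63 ± 0.622, adjusted p = 0.00646), Il18rap (2.26 ± 0.431, adjusted p = 0.00141) and Il12rb1 (1.24 ± 0.402, adjusted p = 0.0360) were also without overlap. With single libraries left out, Il12rb1 was called in 8 of 16 fits.

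**Figure D4:**
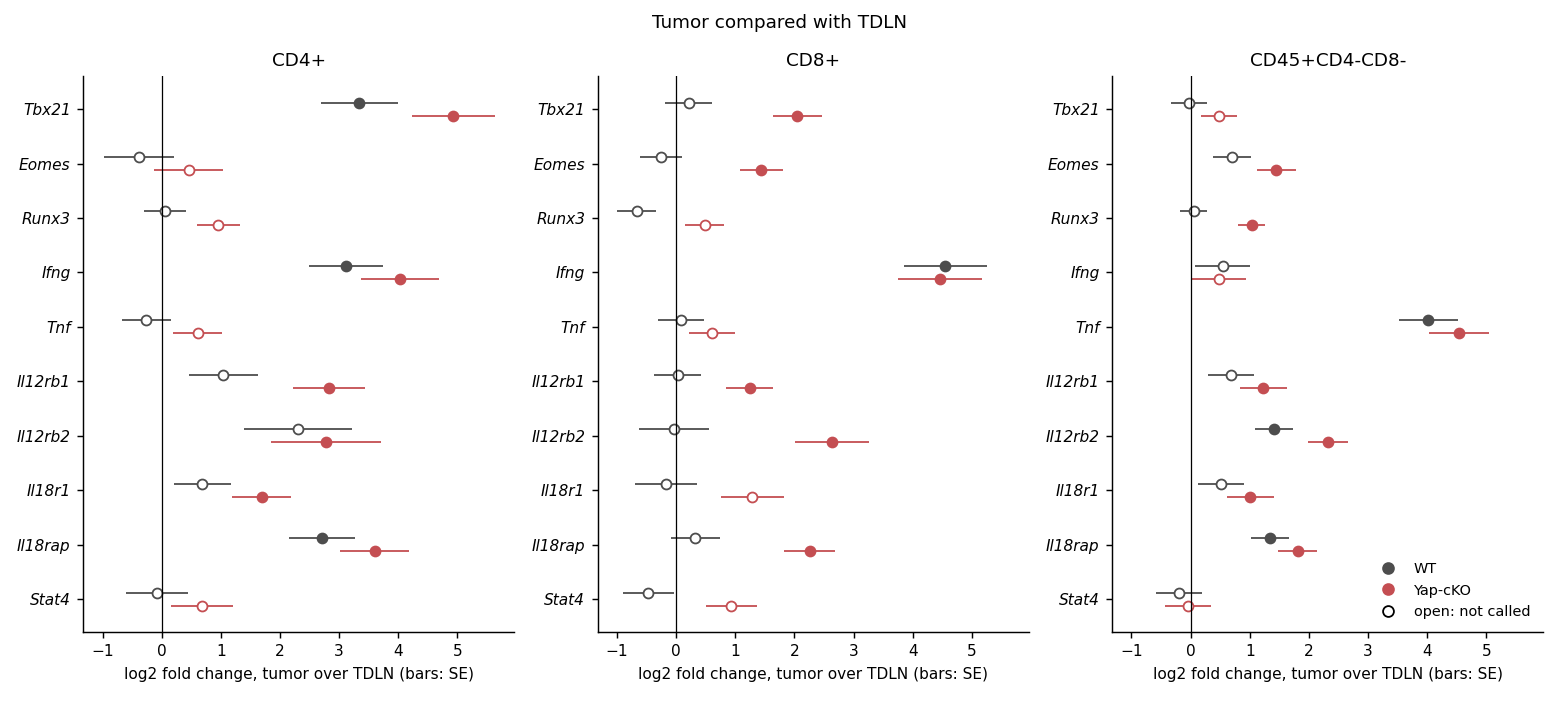
Log2 fold change of tumor over TDLN with its SE (horizontal axis) for each gene in CD4+ (left), CD8+ (middle) and CD45+CD4-CD8- (right) cells of WT (gray) and Yap-cKO (red) mice, 4 libraries per group, filled where called and open where not. Ifng lies beyond 3 in all T-cell comparisons and Tnf beyond 4 in CD45+CD4-CD8- cells, and in CD8+ cells, under TMM, most Yap-cKO points lie to the right of the WT points.

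Whether these tissue differences were unequal between the genotypes was tested as an interaction, and 0 of the 10 genes were called by edgeR in CD4+ cells (1.36% of genes called), CD8+ cells (0.422%) or CD45+CD4-CD8- cells (0%). In CD8+ cells 9 of the 10 interactions were positive, 7 had an unadjusted p under 0.05 (15.6% of all genes had), and their median was 1.43 on the log2 scale, beside 0.05 over all genes. The smallest edgeR adjusted p there was 0.126, for Eomes (1.70 ± 0.510), and Il12rb2 had the widest value (2.66 ± 0.846, adjusted p = 0.148). DESeq2 called 3 in CD8+ cells, Eomes, Il12rb2 and Il18rap (4.81% of all genes called), and without the low-count filter edgeR called Il12rb2 and Il18rap (1.62%). Under scaling on the T-lineage genes, 8 of the 10 interactions were positive in CD8+ cells, with a median of 0.32 beside -1.22 over all genes, and 5 of 10 in CD4+ cells, with a median of -0.07 beside -1.32. On this scale 0 of the 10 had an unadjusted p under 0.05 in CD8+ cells, where 41.3% of all genes had and 22.3% were called. In CD4+ cells 0 had as well, where 40.5% of all genes had and 13.5% were called. Under TMM, 1 of the 10 had an unadjusted p under 0.05 in CD4+ cells and 1 in CD45+CD4-CD8- cells (14.8% and 8.38% of all genes had). These were Il12rb1 (1.79 ± 0.818, edgeR adjusted p = 0.314) and Runx3 (0.98 ± 0.317, adjusted p = 0.343), and DESeq2 called 0 in either population.

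Scaling on the T-lineage genes changed the tissue comparison in WT T cells. T-lineage sums were 7691 to 14053 CPM in WT T cells of the TDLN and 1635 to 6456 in WT TILs, and melanoma sums 8.13 to 14.0 and 3660 to 16641. On this scale, which moved the median of all genes to 1.60 in WT CD4+ and 1.73 in WT CD8+ cells, 8 and 7 of the 10 genes were called higher in the tumor, where 60.7% and 66.4% of all genes were called. In WT CD8+ cells Tbx21 was at 1.72, Eomes at 1.24 and Ifng at 6.00 on this scale. Per 1000 T-lineage counts, Tbx21 there was at 3.56 to 9.28 in the TDLN and 15.2 to 23.9 in the tumor, without overlap. In Yap-cKO CD8+ cells it was at 2.76 to 5.05 and 21.1 to 25.6. Eomes in WT CD8+ cells was at 2.48 to 9.02 and 7.94 to 13.8, with overlap. Only Ifng of these lay above the median of all genes. That comparison largely returns the TMM result, not the level per T-lineage count. In Yap-cKO cells the medians were 0.28 and 0.51 and 7 and 6 genes were called, where 17.7% and 16.4% of all genes were.

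Tnf led the tissue difference of CD45+CD4-CD8- cells. It was at 18.6, 5.94, 9.50 and 19.7 CPM in the WT TDLN and at 388, 106, 201 and 175 in the WT tumor, and at 6.99 to 19.4 and 188 to 471 in Yap-cKO, with log2 fold changes of 4.02 ± 0.496 (edgeR adjusted p = 7.41e-06) and 4.53 ± 0.508 (1.88e-06). In WT 3 of the 10 genes were called, where 40.0% of all genes were (22.5% higher), the others being Il12rb2 (1.41 ± 0.325, adjusted p = 0.00169) and Il18rap (1.34 ± 0.327, adjusted p = 0.00249). In Yap-cKO 7 of the 10 were called, where 40.7% were (22.3% higher): Tnf, Il12rb2 (2.32 ± 0.334), Il18rap (1.81 ± 0.330), Eomes (1.45 ± 0.327), Il12rb1 (1.23 ± 0.392), Runx3 (1.03 ± 0.226) and Il18r1 (1.01 ± 0.391), with edgeR adjusted p from 1.88e-06 to 0.0379. Runx3 and Il18r1 lay close to the fold-change limit. With single libraries left out, Runx3 was called in 11 of 16 fits and Il18r1 in 7. The composition of this population moved with tissue: 5 myeloid markers summed to 151 to 3635 CPM in the TDLN and 15220 to 29238 in the tumor, 5 B-cell markers to 6603 to 8482 and 195 to 1605, and the 6 NK and group 1 innate lymphoid markers to 38.6 to 117 and 142 to 216. Their part in the differences was not tested.

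CD8+ and CD4+ T cells of the same tissue were compared over 8 libraries. Eomes was called in all 4 comparisons. In the WT TDLN it measured 0.688, 2.53, 2.96 and 3.46 CPM in the CD4+ and 26.6, 47.8, 27.7 and 69.4 in the CD8+ libraries (log2 fold change 4.15 ± 0.516, edgeR adjusted p = 0.00137), and in the WT tumor at 1.05, 1.13, 4.45 and 0.705 and at 21.1, 29.8, 52.2 and 35.2 (4.27 ± 0.604, adjusted p = 0.0327). The lowest CD8+ library exceeded the highest CD4+ library in each tissue and genotype, and the differences were 3.42 ± 0.312 in the Yap-cKO TDLN (adjusted p = 0.000271) and 4.42 ± 0.525 in the Yap-cKO tumor (0.00273).

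Tbx21 and Il18rap were higher in CD8+ than CD4+ cells of the TDLN in both genotypes. In WT, Tbx21 was at 2.41 to 12.5 CPM in CD4+ and 34.2 to 113 in CD8+ cells (log2 fold change 3.18 ± 0.535, edgeR adjusted p = 0.00741) and Il18rap at 4.52 to 13.3 and 13.9 to 62.7 (2.27 ± 0.499, adjusted p = 0.0309). In Yap-cKO the differences were 2.76 ± 0.50 for Tbx21 (adjusted p = 0.0159) and 1.84 ± 0.397 for Il18rap (0.0384). With single libraries left out, Il18rap was called in 3 of 8 fits in the WT TDLN and 2 of 8 in the Yap-cKO TDLN. Tbx21 was called in 8 of 8 and 5 of 8. In the tumor neither was called, with Tbx21 at 0.07 ± 0.569 in WT and -0.02 ± 0.316 in Yap-cKO. Runx3 was called in the WT TDLN only, at 44.2 to 52.1 CPM in CD4+ and 88.5 to 115 in CD8+ cells (1.11 ± 0.187, adjusted p = 0.00740), and in the Yap-cKO TDLN it stood at 0.85 ± 0.198 (adjusted p = 0.0539), and the difference between these was not tested.

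In all, 4 of the 10 genes were called between CD8+ and CD4+ cells in the WT TDLN (3.76% of genes called, 1.60% higher in CD8+), 3 in the Yap-cKO TDLN (2.49%, 1.30% higher), and 1 each in the WT tumor (0.119%, 0.0701% higher) and the Yap-cKO tumor (2.49%, 1.13% higher). Same-numbered libraries were paired in 3 of these comparisons, as the correlation of their deviations allowed. The replicate block then called 5 of the 10 in the WT TDLN, adding Il12rb2, and 2 in the Yap-cKO tumor, adding Il12rb1. It also called more of all genes, 891 of 12785 in the WT TDLN and 612 of 13902 in the Yap-cKO tumor. Without the block these were 481 and 346, so the added calls do not set the 10 genes apart. Il12rb1 was lower in Yap-cKO CD8+ TILs, at 26.4 to 36.4 CPM against 51.5 to 130 in CD4+ TILs (log2 fold change without the block -1.34 ± 0.308, edgeR adjusted p = 0.0512). The call of Eomes in the WT tumor was lost without replicate 2, 3 or 4 of CD8+ TILs or replicate 2 or 4 of CD4+ TILs, when 0 of the 10 were called. In the Yap-cKO TDLN only Eomes remained called without replicate 2 of CD8+ cells or replicate 2 or 3 of CD4+ cells.

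Runx3 is transcribed from a distal start, of transcript ENSMUST00000056977.13, and from starts about 30 kb downstream, where the annotation places a shorter protein-coding transcript and 4 without a coding sequence. The distal share of Runx3 TPM was 90.1%, 74.8%, 67.8% and 81.1% in WT CD4+ cells of the TDLN and 86.9%, 93.1%, 88.5% and 90.3% in CD8+ cells. The mean share was thus 78.4% ± 9.46 and 89.7% ± 2.67, with overlap through CD4+ replicate 1, and an exact permutation test, two-sided, gave p = 0.0857 (0.171 after adjustment over the 2 tests made), the smallest possible p being 0.0286. In WT TILs the shares were 77.3% ± 16.5 in CD4+ and 88.2% ± 6.47 in CD8+ cells (exact permutation p = 0.257, adjusted 0.257). In absolute terms, the distal start accounted for 16.6 ± 0.609 TPM in CD4+ and 32.9 ± 2.65 TPM in CD8+ cells of the WT TDLN, and the other starts for 4.73 ± 2.39 and 3.82 ± 1.20 TPM.

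Other genes of the pathway, 25 beside the 10 (ligands, kinases and adaptors, transcription factors, outputs and receptors), were counted in the same comparisons. In CD4+ TILs 2 of the 22 tested were called (9.09%, beside 8.02% of all genes), both higher in Yap-cKO: Ebi3, a subunit of IL-27 and IL-35 (log2 fold change 1.76 ± 0.371, edgeR adjusted p = 0.0181), and Prdm1, the gene of Blimp-1 (1.67 ± 0.433, adjusted p = 0.0393). In CD8+ TILs 2 of 23 were called (8.70%, beside 12.2% of all genes), Jak2, a kinase of the IL-12 receptor, at 35.3 CPM in WT and 101 in Yap-cKO (1.54 ± 0.367, adjusted p = 0.0273), and Hlx, a homeobox partner of T-bet, at 13.3 in WT and 1.80 in Yap-cKO (-2.83 ± 0.730, adjusted p = 0.0336). Melanoma sums in the same libraries were 3660 to 13167 CPM in WT and 38.6 to 2368 in Yap-cKO, and those of 6 endothelial and fibroblast genes 98.9 to 1543 and 57.9 to 89.9, and their part in the difference in Hlx was not tested. None of the 24 tested in CD45+CD4-CD8- tumor cells was called by edgeR, although 7 had an unadjusted p under 0.05 (17.8% of all genes had), and 0 of 18 to 22 were called in each TDLN population, where 1 in all had.

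Between tissues, 8 of 22 were higher and 5 lower in the tumor in WT CD4+ cells (59.1% called, beside 34.6% of all genes) and 10 higher and 1 lower in Yap-cKO CD4+ cells (50%, beside 25.1%). In CD8+ cells 10 of 23 were higher and 7 lower in WT (73.9%, beside 37.6%) and 9 and 3 in Yap-cKO (52.2%, beside 17.7%). Zeb2, a zinc finger factor of effector T cells and of myeloid cells, rose in both T-cell types of both genotypes, from 1.70 to 39.0 CPM in WT CD8+ cells (log2 fold change 4.57 ± 0.545, edgeR adjusted p = 1.04e-05). The 5 myeloid markers summed to 8.34 to 30.4 CPM in these TDLN and 200 to 499 in these tumor libraries, Zeb2 itself was at 179 CPM in WT CD45+CD4-CD8- tumor cells, and the part of myeloid RNA in the difference was not tested. In CD45+CD4-CD8- cells 11 of 24 were higher and 3 lower in WT (58.3%, beside 40.0%) and 14 and 3 in Yap-cKO (70.8%, beside 40.7%). Among these were Il12b, the p40 subunit of IL-12, at 0.324 CPM in the TDLN and 24.3 in the tumor of WT (6.23 ± 0.522, adjusted p = 2.58e-07), and Il15, at 1.92 and 36.1 (4.24 ± 0.535, adjusted p = 8.82e-06).

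Genes with the pattern most like that of Tbx21, Eomes and Ifng were sought among 16868 genes by the correlation of group mean log2 CPM over the 12 groups, which share libraries, tissues and cell types. For Tbx21 these included Ccl5 (r = 0.921), Il18rap (0.915), Fhl2 (0.901) and Nkg7 (0.901). For Eomes they were Prf1, the perforin gene (0.958), Klrd1 (0.943), Wdr95 (0.934), the pseudogene Klra13-ps (0.922), which is uncertain because it belongs to a family of near-identical genes, and Cd7 (0.921). For Ifng they were Gzmk, the granzyme K gene (0.970), Vps36 (0.954), Mterf1b (0.949), Gm9806 (0.948) and Clgn (0.945). Among the 10 genes themselves, the closest pairs over the 12 groups were Il12rb2 with Il18rap (r = 0.96) and Il12rb1 with Il18r1 (0.94), while the partners within a receptor were less alike, Il12rb1 with Il12rb2 at 0.45 and Il18r1 with Il18rap at 0.48.

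Within groups, Stat4, Il18r1 and Il18rap varied between libraries together with Ptprc, a relation noticed after the values were seen. Over the 48 libraries, the deviations of log2 CPM from the group mean correlated with those of Ptprc at r = 0.88 for Stat4, 0.87 for Il18r1 and 0.76 for Il18rap, and between -0.23 and 0.28 for the other 7 genes. How many of all genes followed Ptprc this closely was not counted, so the relation is not shown to be particular to Stat4, Il18r1 and Il18rap. Stat4 and Ptprc were highest in the same library in 8 of the 12 groups and lowest in the same library in 8. In WT CD8+ TDLN cells, for example, Ptprc was at 366, 412, 256 and 2408 CPM, Stat4 at 114, 80.0, 52.2 and 256, and Il18r1 at 17.0, 13.9, 8.78 and 55.1, each highest in replicate 4 and lowest in replicate 3. Tbx21 in the same libraries, at 34.2, 113, 68.0 and 40.8 CPM, followed another order. In CD8+ TILs, where all 3 genes were called between genotypes, Ptprc was at 279 to 505 CPM in WT and 678 to 1733 in Yap-cKO, without overlap, and its part in the result was not tested.

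**Figure D5:**
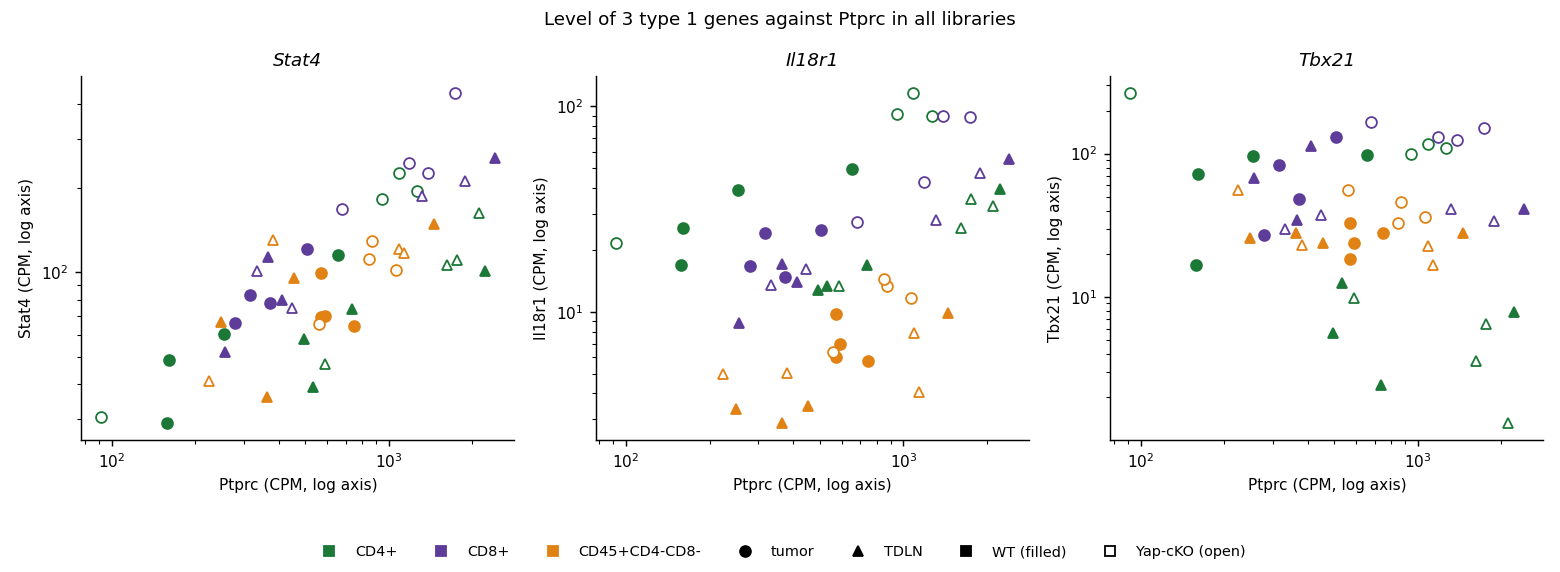
Level of Stat4, Il18r1 and Tbx21 (vertical log axes, CPM) against that of Ptprc (horizontal log axis, CPM) in the 48 libraries, colored by cell type, with circles for tumor and triangles for TDLN, filled for WT and open for Yap-cKO. Within groups Stat4 (r = 0.88) and Il18r1 (r = 0.87) rise with Ptprc, and Tbx21 (r = -0.22) does not.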

How the data were processed

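RNA from sorted cells was made into SMART-Seq v4 libraries, which amplify full-length cDNA without strand or molecular identifiers, and sequenced as paired-end reads. The submitters' processing notes name FastQC, Trimmomatic and Salmon 0.9.1 with mm10. The authors deposited, for each library and transcript, an expected count without normalization, a TPM scaled by effective length within the library, and the effective length. For 111787 of 112092 transcripts a gene was found in GENCODE M21, which left 0.0488% to 0.18% of counts unmatched. Expected counts were summed per gene and rounded. Overlapping genes on opposite strands cannot be told apart.

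Of the genes, those reaching 10 counts in 4 or more libraries of a fit were tested with edgeR 4.0.16 (R 4.3.3) by TMM, quasi-likelihood fits and F tests, with Benjamini-Hochberg adjustment over all genes tested. SE is the log2 fold change over the root of F. Simulated data tested the fits of genotype in CD4+ TILs, the interaction in CD8+ cells and cell type in the WT TDLN. The other fits were not tested in this way. Libraries of a group were compared pairwise and 0 were identical. The authors' own gene-level analysis used DESeq2, which here was an alternative (1.42.0). The others were no filter, transcript length offsets, the adjusted p alone, the replicate number as a block, scaling on 15 T-lineage genes, a covariate of 4 Y-linked genes, and each library left out. Same-numbered libraries were taken as paired where the correlation of their deviations from the group means (log2 of CPM plus 0.5) exceeded 0.1 in all 4 pairs, which held between CD4+ and CD8+ cells of the WT TDLN (0.384 to 0.786), the WT tumor (0.112 to 0.709) and the Yap-cKO tumor (0.155 to 0.621). The labels give the numbers and do not say that they mark a mouse. The distal share of Runx3 took transcripts that start within 5 kb of the gene's 5′ end.

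The 10 genes and all gene lists were chosen with earlier results of these data known. All 10 were to be named wherever called, and of the 25 pathway genes and 4 lineage factors the called ones with the 3 largest fold changes could be. Some genes that these rules name are not reported here. Promoters are from RefSeq on GRCm38.p6.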

Additional observations from a re-analysis of the deposited data

Results flagged for a closer look

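In 12 of the 120 group values of the 10 genes (10 genes in 12 groups of 4 libraries), a library lay far from the other 3 by Dixon's criterion. For independent, normally distributed values it is reached in about 1 in 20 groups, or 6 of 120. Here it was applied to CPM without a log scale, and the 10 genes share the same 48 libraries. The 12 therefore cannot be read as an excess over the 6. Among the transcription factors, Tbx21 was at 265 CPM in replicate 3 of Yap-cKO CD4+ TILs and at 100 to 116 in the others, and at 55.8 CPM in replicate 3 of Yap-cKO CD45+CD4-CD8- TDLN cells and at 16.8 to 23.0 in the others. Eomes was at 4.45 CPM in replicate 3 of WT CD4+ TILs, against 0.705 to 1.13. Runx3 was at 106 CPM in replicate 4 of Yap-cKO CD8+ TDLN cells, against 75.9 to 80.3. Ifng was at 117 CPM in replicate 2 of Yap-cKO CD8+ TILs, against 45.8 to 57.6, and at 7.33 CPM in replicate 2 of WT CD45+CD4-CD8- TDLN cells, against 1.84 to 2.33.

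Of the receptor genes, Il12rb1 was at 23.7 CPM in replicate 1 of Yap-cKO CD8+ TDLN cells, against 9.6 to 11.5, and at 11.6 CPM in replicate 4 of WT CD45+CD4-CD8- tumor cells, against 4.02 to 4.82. Il18r1 was at 39.4 CPM in replicate 4 of WT CD4+ TDLN cells, against 12.7 to 16.9, and at 9.86 CPM in replicate 2 of WT CD45+CD4-CD8- TDLN cells, against 2.86 to 3.49. Stat4 was at 41.2 CPM in replicate 3 of Yap-cKO CD45+CD4-CD8- TDLN cells, the only library of the 12 that lay below its group, against 117 to 131, and at 99.6 CPM in replicate 1 of WT CD45+CD4-CD8- tumor cells, against 64.4 to 69.9.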

How the results depend on the processing

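No count of called genes and no fold change of a called gene changed direction under the alternatives run. For Yap-cKO against WT in CD8+ TILs, 5 genes became 0 with the replicate block, 0 with T-lineage scaling and 0 with the Y-linked covariate. The block left 1 of 14121 genes called, and the log2 fold changes of the 5 were 1.34 to 2.02 with it. Leaving out single libraries gave 0 to 8 there and 0 to 2 in CD4+ TILs, where DESeq2 gave 3. T-lineage scaling gave 8 for tumor against TDLN in WT CD4+ cells and 7 in WT CD8+ cells. The interaction in CD8+ cells gave 3 with DESeq2, 2 without the filter and 0 to 2 with single libraries left out (Tbx21 and Runx3 without replicate 3 of WT CD8+ TILs). CD8+ against CD4+ in the Yap-cKO tumor gave 2 with DESeq2, 2 without the filter and 2 with the block. Of 13902 genes there, the main fit called 346, DESeq2 734 and the block 612. Without the filter, 405 of 24716 genes were called. With single libraries left out, this comparison gave 1 to 2 of the 10 (2 without replicate 3 of CD4+ TILs). Left-out libraries gave 1 to 2 for tumor against TDLN in WT CD8+ cells (2 without replicate 3 of the tumor, which added Runx3, lower), 3 to 6 in WT CD45+CD4-CD8- cells (6 without replicate 2 of the TDLN), 0 to 1 for CD8+ against CD4+ in the WT tumor and 1 to 3 in the Yap-cKO TDLN. They also gave 4 to 6 for tumor against TDLN in Yap-cKO CD4+ cells, 5 to 7 in Yap-cKO CD8+ cells and 5 to 7 in Yap-cKO CD45+CD4-CD8- cells. In WT the range was 3 to 4 for tumor against TDLN in CD4+ cells and 3 to 4 for CD8+ against CD4+ in the TDLN. The causes were not tested beyond the fewer libraries of these fits. The shares of all genes called with single libraries left out are not given here, so these counts do not set the 10 genes apart.

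The replicate block changed no other count by over 1.5 times. Genotypes and tissues shared only a number: their libraries correlated best with their own number in 0 to 2 of 4 cases per comparison, and in 3 of 4 between CD4+ and CD8+ cells of the Yap-cKO TDLN, where the lowest correlation was -0.076. For the Runx3 distal share the difference in the WT TDLN was 11.27 percentage points by TPM and 3.51 by counts (exact permutation p = 0.0286, adjusted 0.0571), and sign flips of the pairs (replicate block) gave p = 0.250. In depth, 3 counts equal 0.124 to 0.237 CPM, under the lowest level of any of the 10 genes in a library, 0.684 CPM for Ifng.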

Other observations

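Gata3 and Foxp3, factors of other helper lineages, were measured beside the type 1 genes. Gata3, the Th2 factor, was higher in Yap-cKO in all 3 tumor populations, from 68.8 to 238 CPM in CD4+ TILs (log2 fold change 1.88 ± 0.449, edgeR adjusted p = 0.0288), from a WT mean of 20 to 52.9 in CD8+ TILs (1.43 ± 0.348, adjusted p = 0.0287) and from 3.23 to 8.66 in CD45+CD4-CD8- tumor cells (1.39 ± 0.245, adjusted p = 0.0360). Foxp3, the factor of regulatory T cells, was at 175 CPM in WT and 483 in Yap-cKO CD4+ TILs (1.57 ± 0.364, adjusted p = 0.0256), a gene named after its values were seen. These differences share the T-lineage and melanoma shifts given for the TILs, whose part was not tested.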
